A study of Mus musculus with 4 samples.

Results

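The Polycomb repressive complex genes described here are 10 genes chosen by name for the complex each protein belongs to: Ezh1, Ezh2, Eed, Suz12, Jarid2 and Mtf2 of Polycomb repressive complex 2 (PRC2), and Ring1, Rnf2, Pcgf6 and Kdm2b of Polycomb repressive complex 1 (PRC1). They are 10 of the 24116 genes in the count table, and all 10 were among the 14896 genes with enough reads to be tested. The RNA came from mouse embryonic stem cells (ESCs) of strain C57BL/6, grown on feeder cells with serum and leukemia inhibitory factor. WT cells of the line N12 were compared with third-generation (G3) Terc-/- cells of the line F35, which lack the RNA template of telomerase and so lose telomere sequence as they divide. Each genotype had 2 libraries of 1 line, so genotype and line cannot be told apart, and the p-values measure the spread between these libraries only.

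PRC2 methylates lysine 27 of histone H3 through its catalytic subunit, Ezh2 or Ezh1, and PRC1 ubiquitylates histone H2A through Rnf2 or Ring1. Both complexes keep developmental regulators silent in ESCs, and their accessory subunits bring them to CpG-rich promoters. Loss of PRC2 is tolerated by ESCs under self-renewing conditions, whereas their differentiation is impaired.

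Library totals ran from 18047995 to 22520017 reads assigned to genes. Reads on Terc numbered 7 and 2 in WT. No read fell on it in either G3 Terc-/- library (0 counts, which allow up to 3). All 10 pluripotency markers had counts in every library, with a summed level of 5886 and 5988 CPM (counts scaled to the library's total after TMM adjustment, the trimmed mean of M-values) in WT and 6869 and 7157 in G3 Terc-/-, and 7 of them rose and 3 fell. The 18 feeder markers also had counts in every library, none at 0. Their summed level was 1823 and 1473 CPM in WT and 2576 and 2163 in G3 Terc-/-, with 8 of 17 tested higher and 0 lower. Over all tested genes 43.5% were called, 21.7% higher and 21.8% lower. Without Fn1 and Vim, a subset that was not planned, the summed level of the feeder markers overlapped between the groups. It was 519 and 331 CPM in WT and 559 and 380 in G3 Terc-/-.

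RNA of both catalytic subunits of PRC2 fell in G3 Terc-/- ESCs, while Eed, the subunit that reads the methyl mark, did not pass the test. Of the 10 genes, 6 fell (Ezh2, Ezh1, Suz12, Jarid2, Pcgf6 and Mtf2) and 3 rose (Kdm2b, Ring1 and Rnf2), at an adjusted p under 0.05 (quasi-likelihood test of edgeR, p-values adjusted over all tested genes by Benjamini-Hochberg). These shares stand against 43.5% of all tested genes called, 21.7% higher and 21.8% lower. Among the 8051 genes with at least the mean count of the least abundant of the 10, 50.4% were called. None of the 10 passed the study's cutoffs of a fold change over 2 with a p under 0.05, which 7.85% of tested genes passed (4.73% higher, 3.13% lower). The CPM of the groups did not overlap for 9 of the 10, against 70.4% of tested genes (35.5% higher, 34.9% lower). The median log2 fold change of the 10 was -0.23, against 0.0062 over all tested genes. In bulk RNA, fewer cells of a type and less RNA per cell cannot be told apart.

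**Figure D1:**
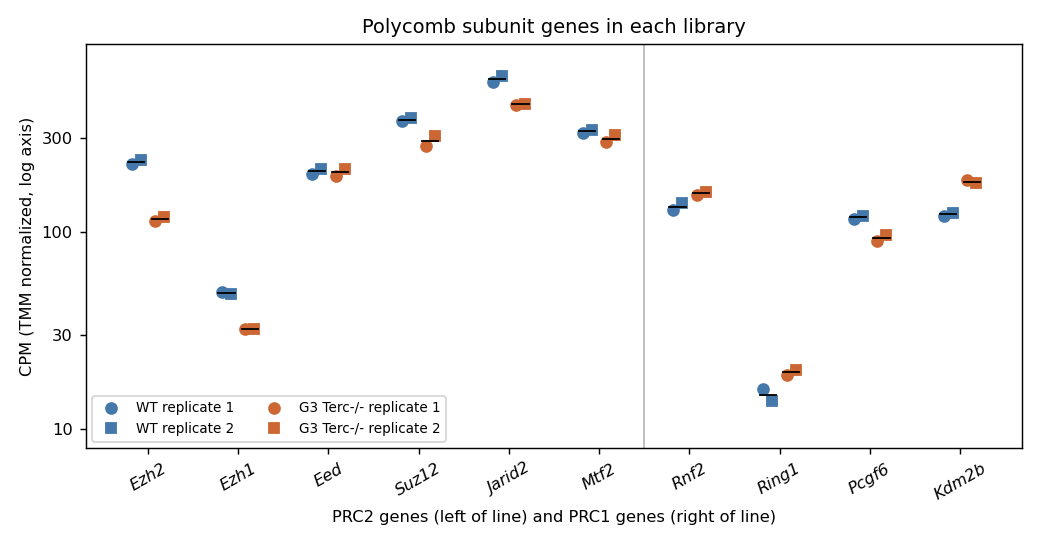
CPM (TMM normalized, log axis) of the 10 Polycomb subunit genes in the 2 WT (blue) and 2 G3 Terc-/- (orange) libraries, with circles for replicate 1, squares for replicate 2 and a bar at each group mean. Ezh2 lies at 221 and 231 CPM in WT and 114 and 119 in G3 Terc-/-, and Eed is the gene of the 10 whose groups overlap.

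The promoters of the genes with the largest change in each direction among the 10 are shown because CpG-rich promoter sequence is what PRC1 and PRC2 are brought to. Each is a window of 300 bases around a RefSeq transcription start (build GRCm38.p6), given 5′ to 3′ on the gene's strand with each CG in capitals. The Ezh2 window is chr6:47594981-47595280, minus strand, with 31 CG. The Kdm2b window is chr5:122989050-122989349, minus strand, with 28 CG, and is 1 of 4 listed for that gene.
Ezh2: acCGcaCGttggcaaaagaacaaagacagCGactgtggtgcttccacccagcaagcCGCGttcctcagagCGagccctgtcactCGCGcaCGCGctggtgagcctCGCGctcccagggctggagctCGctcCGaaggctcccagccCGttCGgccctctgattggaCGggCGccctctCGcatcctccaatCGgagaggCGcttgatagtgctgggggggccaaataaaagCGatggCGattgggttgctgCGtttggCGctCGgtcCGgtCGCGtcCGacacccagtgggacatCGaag
Kdm2b: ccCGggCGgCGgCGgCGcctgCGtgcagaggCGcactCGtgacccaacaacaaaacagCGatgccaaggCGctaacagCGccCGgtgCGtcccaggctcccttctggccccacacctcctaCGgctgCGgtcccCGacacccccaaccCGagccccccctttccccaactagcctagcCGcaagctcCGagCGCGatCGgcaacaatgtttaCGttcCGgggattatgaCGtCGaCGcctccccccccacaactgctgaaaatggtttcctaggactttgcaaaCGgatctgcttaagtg
By the richest window of each gene, the 10 genes had a median of 30 CG (range 17 to 49). Over all 27025 genes with a window the median was 8, and 66.1% had fewer than 17. The genes that fell and the genes that rose both have CpG-rich windows. Binding of PRC1 or PRC2 to these windows was not measured.

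Ezh2 (gene 14056, chr6:47530274-47595270, mm10, minus strand) encodes the main histone methyltransferase of PRC2 in ESCs. Its level was 221 and 231 CPM in WT and 114 and 119 CPM in G3 Terc-/-. Both G3 Terc-/- libraries lay at about the same low level, far from WT. The log2 fold change was -0.96 (SE 0.054, adjusted p = 7.95e-19), and the level fell by 48.5%. Ezh1 (gene 14055, chr11:101191115-101226463, minus strand) encodes the other PRC2 methyltransferase, which is more abundant in resting and differentiated cells. It measured 49.6 and 48.6 CPM in WT and 32.4 and 32.2 CPM in G3 Terc-/-, a log2 fold change of -0.61 (SE 0.073, adjusted p = 3.86e-09). Both catalytic genes therefore fell, and in neither did the groups overlap.

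Per kilobase of exon, Ezh2 was above Ezh1 in every library. The ratio of their length-scaled levels was 4.95 and 5.30 in WT and 3.92 and 4.12 in G3 Terc-/-. The mean ratio was 5.13 ± 0.24 (SD, n = 2) in WT and 4.02 ± 0.14 in G3 Terc-/-, and the groups did not overlap. The exact permutation test gave a two-sided p = 0.333, the smallest that 2 against 2 libraries allow.

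Suz12 (gene 52615, chr11:79993106-80034123, plus strand), the scaffold of PRC2, measured 364 and 379 CPM in WT and 274 and 306 CPM in G3 Terc-/-. It fell by 0.36 on the log2 scale (SE 0.052, adjusted p = 2.34e-07), with the G3 Terc-/- libraries further apart from each other than the WT libraries. Eed (gene 13626, chr7:89954654-89980976, minus strand) measured 198 and 209 CPM in WT and 194 and 209.5 CPM in G3 Terc-/-. Its log2 fold change was -0.01 (SE 0.053, adjusted p = 0.846), and its sign turned when G3 Terc-/- replicate 1 (0.04) or WT replicate 2 (0.02) was left out. The 3 core genes thus changed by unequal amounts: the length-scaled ratio of Ezh2 to Suz12 was 0.449 and 0.451 in WT and 0.308 and 0.288 in G3 Terc-/-. The ratio of Ezh2 to Eed was 0.639 and 0.634 in WT and 0.337 and 0.325 in G3 Terc-/-. These 2 ratios were chosen after the data were seen and were not tested.

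Jarid2 (gene 16468, chr13:44730774-44921643, plus strand), a cofactor that recruits and stimulates PRC2, was the most abundant of the 10 in CPM. It measured 575 and 618 CPM in WT and 443 and 449 CPM in G3 Terc-/-. Its log2 fold change of -0.42 (SE 0.049, adjusted p = 1.42e-09) means that it fell by 25.3%. Mtf2 (gene 17765, chr5:108065660-108109219, plus strand), a Polycomb-like protein that binds CpG-rich DNA, measured 319 and 331 CPM in WT and 287 and 309.7 CPM in G3 Terc-/-. It fell by 0.12 on the log2 scale (SE 0.050, adjusted p = 0.0417), the smallest change called among the 10. The call was lost in DESeq2 (adjusted p = 0.0666), when the fit kept genes with a mean count of 50 or more (adjusted p = 0.0599), and without G3 Terc-/- replicate 1 (log2 fold change -0.08, adjusted p = 0.198), WT replicate 1 (-0.15, adjusted p = 0.122) or WT replicate 2 (-0.10, adjusted p = 0.357).

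The PRC1 genes moved in both directions. Rnf2 (gene 19821, chr1:151469398-151500991, minus strand), the main E3 ubiquitin ligase of PRC1 in ESCs, measured 129 and 140.4 CPM in WT and 154 and 160.0 CPM in G3 Terc-/-. Its log2 fold change was 0.22 (SE 0.055, adjusted p = 0.00106), and without WT replicate 1 it was 0.16 (adjusted p = 0.134). Ring1 (gene 19763, chr17:34020792-34024680, minus strand), its paralog, was the least abundant of the 10, at 16.0 and 13.9 CPM in WT and 18.9 and 20.0 CPM in G3 Terc-/-. Its log2 fold change was 0.38 (SE 0.10, adjusted p = 0.00252), and the call was lost in DESeq2 (adjusted p = 0.0611) and without WT replicate 2 (0.28, adjusted p = 0.0988). The ligase genes both rose in the main test, and the groups did not overlap for either. The length-scaled ratio of Rnf2 to Ring1 was 6.33 and 7.92 in WT and 6.41 and 6.29 in G3 Terc-/-, where the groups overlapped (log2 difference -0.16, exact permutation p = 0.667).

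Kdm2b (gene 30841, chr5:122870664-122989270, minus strand) encodes the CXXC-domain protein that ties a variant PRC1 to unmethylated CpG islands. It measured 121 and 126 CPM in WT and 184 and 177 CPM in G3 Terc-/-, and rose by 46.2% (log2 fold change 0.55, SE 0.054, adjusted p = 1.87e-11). Pcgf6 (gene 71041, chr19:47033617-47050939, minus strand), the subunit that defines the PRC1.6 complex at germline genes, measured 117 and 120.5 CPM in WT and 90.1 and 97.0 CPM in G3 Terc-/-. It fell by 0.34 on the log2 scale (SE 0.058, adjusted p = 4.46e-06). These variant PRC1 genes thus moved in opposite directions, and their length-scaled ratio, chosen after the data were seen and not tested, was 0.480 and 0.482 in WT and 0.945 and 0.844 in G3 Terc-/-. On the annotation, 7 of the 10 genes overlap another gene, and 2 of them a protein-coding gene on the other strand (Mtf2 with Tmed5, Kdm2b with Rnf34). The strand setting of the counting is not given in the sources used here.

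Ezh2 lies on chromosome 6, in a stretch where most genes were lower in G3 Terc-/-. Of the 129 tested genes from 45 to 80 Mb, 122 had a negative log2 fold change, with a median of -0.90 and quartiles of -1.13 and -0.61. The 14182 genes on other chromosomes had a median of 0.0051 and quartiles of -0.20 and 0.24. Within 5 Mb of Ezh2, 49 of 54 tested genes had a negative value, the median was -0.84, and 20 genes lay below Ezh2. Cul1 (chr6:47453732-47526144), a ubiquitin ligase scaffold and the nearest tested gene on one side, had counts of 3757 and 4019 in WT libraries, against 1716 and 1544 in G3 Terc-/- (log2 fold change -1.13, SE 0.058, adjusted p = 4.22e-20). Pdia4 (chr6:47796141-47813512), an endoplasmic reticulum chaperone and the nearest on the other side, had counts of 3832 and 3806 in WT libraries, against 1948 and 1647 in G3 Terc-/- (log2 fold change -0.96, SE 0.055, adjusted p = 1.64e-18). The log2 fold change of Ezh2 minus the median of its neighbours within 5 Mb was -0.12. The part of the location in the Ezh2 result was not tested. The other 9 genes lie on other chromosomes, and 8 of them were called. Of all tested genes 43.5% were called, and of those with at least the mean count of Ring1 50.4%.

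**Figure D2:**
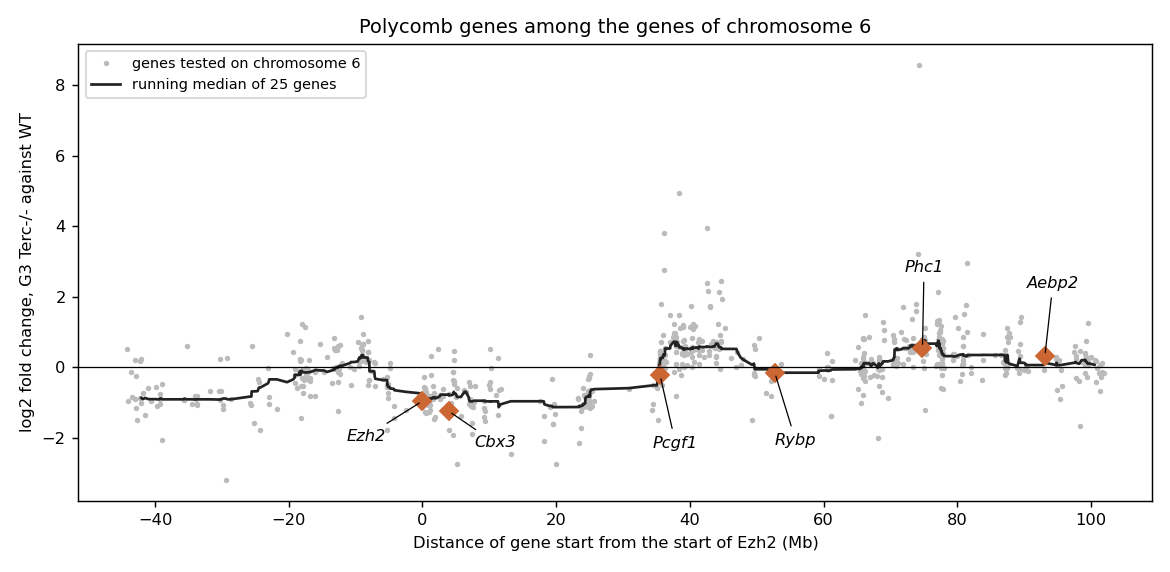
Log2 fold change (G3 Terc-/- against WT) of the tested genes of chromosome 6 (grey) by the distance of their start from that of Ezh2, in Mb, with a running median of 25 genes (black) and the 6 Polycomb subunit genes of the chromosome as orange diamonds. Ezh2 (-0.96) and Cbx3 (-1.24) lie in a stretch with a median of -0.90, and Phc1 (0.55) in one with a median of 0.54.

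Of 53 other Polycomb subunit and eraser genes, all tested, 14 rose and 16 fell (56.6%, against 43.5% of all genes), with a median log2 fold change of -0.03. Without WT replicate 2 fewer of them were called lower, as were fewer of all tested genes. Among the 8 PRC2 accessory genes 4 rose and 1 fell (62.5% called), with a median of 0.23. Epop, which joins PRC2 to elongin, measured 195 and 208 CPM in WT and 332 and 345 CPM in G3 Terc-/- (log2 fold change 0.75, SE 0.051, adjusted p = 4.41e-16). Aebp2, a DNA-binding cofactor on chromosome 6, measured 121 and 134 CPM in WT and 152 and 165 CPM in G3 Terc-/- (0.31, SE 0.057, adjusted p = 1.65e-05). Ezhip, an inhibitor of PRC2 activity, had counts of 41 and 44 in WT libraries, against 89 and 65 in G3 Terc-/- (0.97, SE 0.23, adjusted p = 0.000696). The genes that rose thus include both cofactors and an inhibitor.

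The Polycomb-like paralogs of Mtf2 went in opposite directions. Phf19 measured 20.2 and 22.1 CPM in WT and 11.6 and 12.1 CPM in G3 Terc-/- (log2 fold change -0.84, SE 0.10, adjusted p = 8.21e-09). Phf1 measured 8.15 and 9.29 CPM in WT and 11.5 and 11.7 CPM in G3 Terc-/- (0.41, SE 0.13, adjusted p = 0.00885), and its call was lost in DESeq2 and without WT replicate 1. Per kilobase, Mtf2 remained the highest of this family, at 57.1 ± 1.5 CPM (SD, n = 2) in WT and 52.4 ± 2.8 in G3 Terc-/-, against 4.197 and 2.351 for Phf19 and 2.50 and 3.33 for Phf1. The length-scaled ratio of Epop to Mtf2, members of the same form of PRC2, was 1.503 and 1.545 in WT and 2.84 and 2.74 in G3 Terc-/-, a ratio chosen after the data were seen and not tested.

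**Figure D3:**
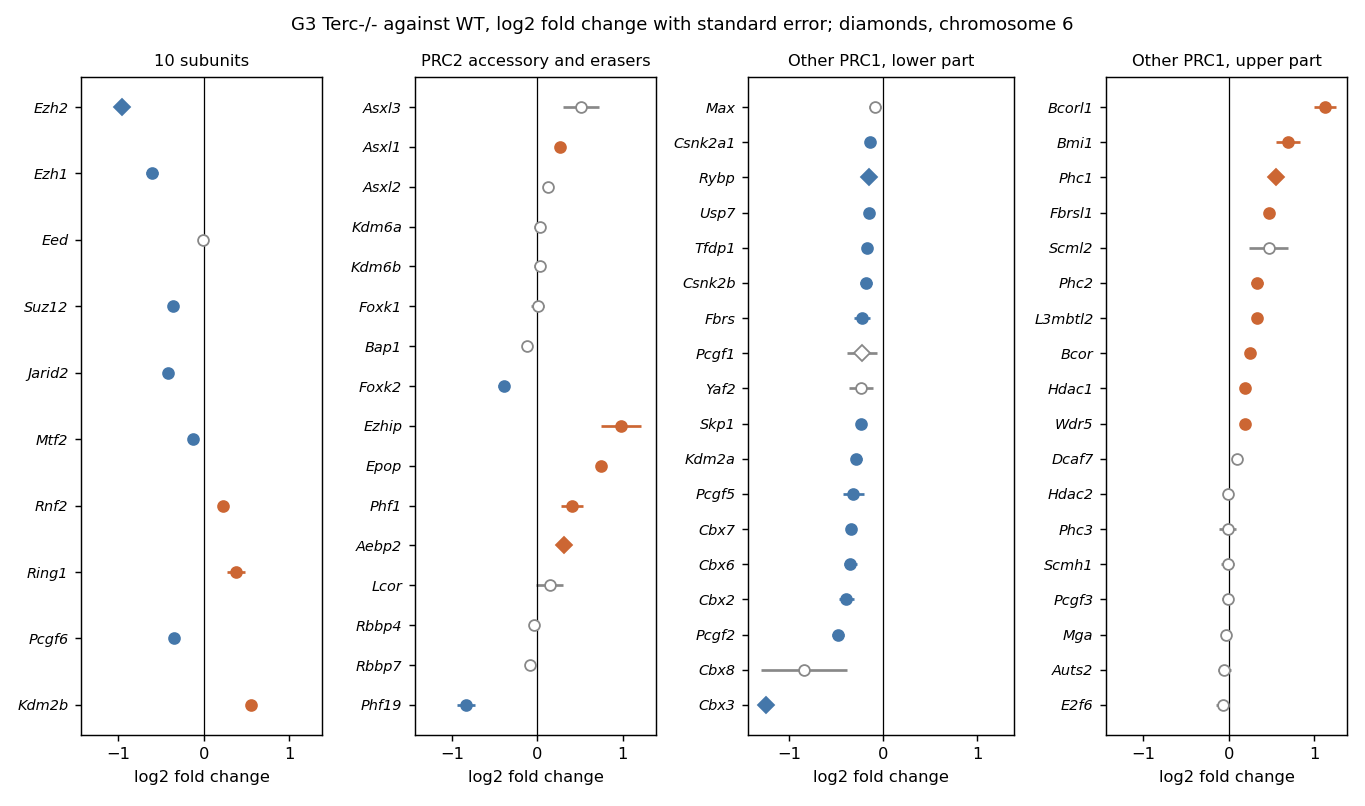
Log2 fold change (G3 Terc-/- against WT, bars 1 SE) of the 10 Polycomb genes and 52 of the 53 other subunit and eraser genes. Orange marks genes called higher, blue genes called lower, open grey genes not called, and diamonds genes on chromosome 6; values run from Cbx3 at -1.24 to Bcorl1 at 1.13.

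Of 37 PRC1 genes, 9 rose and 14 fell (24.3% and 37.8%, against 21.7% and 21.8% of all genes), with a median of -0.09. The Pcgf proteins are alternative partners of Rnf2 that define each form of PRC1. Pcgf2, of canonical PRC1, measured 103 and 96.5 CPM in WT and 77.0 and 65.3 CPM in G3 Terc-/- (log2 fold change -0.48, SE 0.066, adjusted p = 8.00e-08). Its paralog Bmi1 measured 6.46 and 7.49 CPM in WT and 12.2 and 10.2 CPM in G3 Terc-/- (0.69, SE 0.14, adjusted p = 9.00e-05). The canonical pair thus moved in opposite directions from very unequal levels. Pcgf5 had a log2 fold change of -0.32 (adjusted p = 0.0178), lost in DESeq2, without WT replicate 2 and without G3 Terc-/- replicate 2. Pcgf1 (-0.23, adjusted p = 0.246) and Pcgf3 (-0.02, adjusted p = 0.868) did not pass.

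Per kilobase of exon, the order in WT was Pcgf2 (28.2 CPM), Pcgf6 (23.6), Pcgf3 (8.33), Pcgf1 (4.76), Bmi1 (1.75) and Pcgf5 (1.21). In G3 Terc-/- Pcgf2 (20.2) and Pcgf6 (18.6) were within the spread of the libraries, followed by Pcgf3 (8.24), Pcgf1 (4.03), Bmi1 (2.82) and Pcgf5 (0.968). Kdm2a, the paralog of Kdm2b, went the other way from it: 119.8 and 118 CPM in WT against 97.4 and 97.2 CPM in G3 Terc-/- (log2 fold change -0.29, SE 0.056, adjusted p = 5.01e-05).

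**Figure D4:**
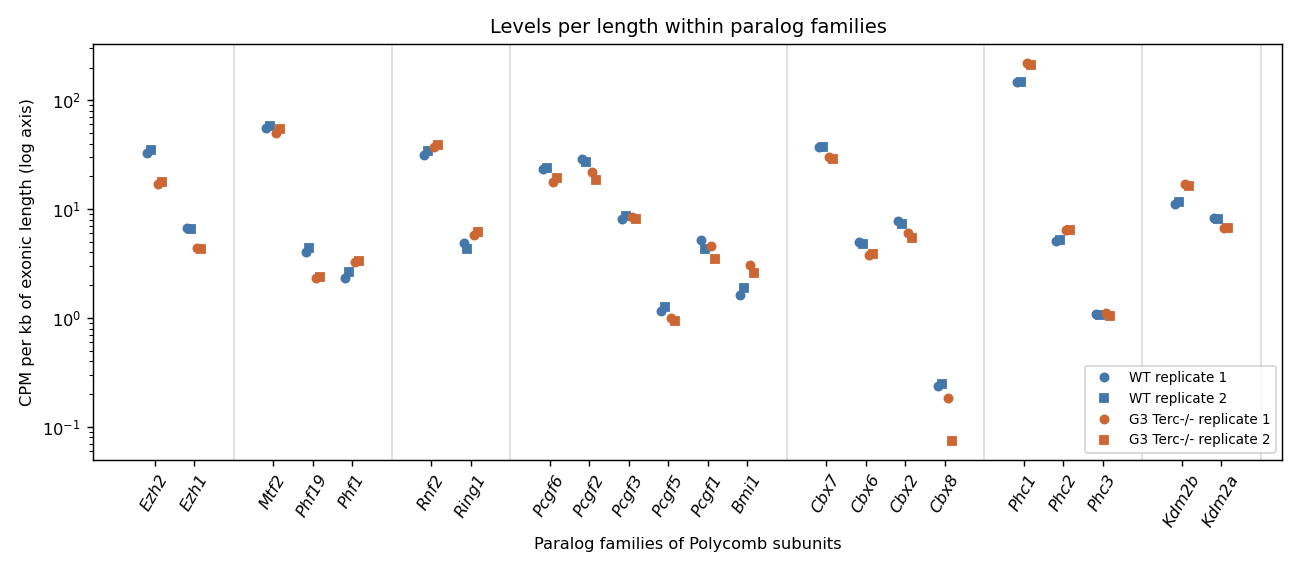
Level per kilobase of exon (CPM per kb, log axis) of paralogous Polycomb subunits in each WT (blue) and G3 Terc-/- (orange) library, with circles for replicate 1 and squares for replicate 2. Ezh2 stays above Ezh1 in all 4 libraries, while Kdm2b rises and its paralog Kdm2a falls.

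Phc1, a polyhomeotic subunit that clusters PRC1 on chromatin, measured 782 and 779 CPM in WT and 1169 and 1120.0 CPM in G3 Terc-/- (log2 fold change 0.55, SE 0.047, adjusted p = 3.47e-13). It lies on chromosome 6 between 120 and 130 Mb, where the tested genes had a median of 0.54, and the part of its location was not tested. Cbx3, the heterochromatin protein of PRC1.6, also on chromosome 6, measured 156 and 167 CPM in WT and 64.4 and 72.2 CPM in G3 Terc-/- (-1.24, SE 0.061, adjusted p = 9.09e-21). Bcorl1, a corepressor of variant PRC1, measured 6.73 and 5.91 CPM in WT and 13.8 and 13.8 CPM in G3 Terc-/- (1.13, SE 0.13, adjusted p = 2.11e-09). Cbx3 and Bcorl1 were the genes of the 53 that passed the study's cutoffs. Fbrsl1 also rose (0.47, adjusted p = 1.04e-09). Of the chromodomain genes that read methylated lysine 27 in canonical PRC1, Cbx7 (-0.35, adjusted p = 2.60e-07), Cbx6 (-0.35, adjusted p = 8.17e-05) and Cbx2 (-0.39, adjusted p = 0.000133) fell, and Cbx8 (-0.84) did not pass; these 4 were named after their values were seen.

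Among listed developmental regulators that are known Polycomb targets, more rose than fell. The list also holds genes with RNA in these WT cells, such as Tbx3. Of its 148 genes, 88 were tested, 29 rose and 7 fell (33.0% and 7.95%, against 21.7% and 21.8% of all genes), with a median log2 fold change of 0.31. The other 60 were removed by the filter on low counts, and a gene that passed the read filter only through the group where it was high had to differ. With no such filter edgeR tested 147, of which 32 rose and 7 fell, beside 3135 and 3416 of 19448 genes. DESeq2 was fitted without that filter but applied its own on the mean count. It gave 14 and 4 of 147, beside 1919 and 2255 of 19448 genes. Any genes that its filter set aside count in these totals but could not be called. Among the 32 whose mean count was 50 or more, 14 rose and 5 fell (59.4%), against 47.3% of all genes of that depth (22.7% higher, 24.6% lower). Of the feeder markers, 8 of 17 were higher and 0 lower, against 21.7% and 21.8% of all genes. The summed level of all 18 did not overlap between the groups, at 1823 and 1473 CPM in WT and 2576 and 2163 in G3 Terc-/-. Without Fn1 and Vim, a subset that was not planned, it overlapped, at 519 and 331 CPM in WT and 559 and 380 in G3 Terc-/-. The part of feeder cells in the target counts was not tested. Of 39 listed Hox genes 14 were tested, and the filter on low counts removed 25. Of the 14, 3 rose and 0 fell. The share that rose, 21.4%, was near the 21.7% of all genes, of which 21.8% fell.

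Tbx3, a T-box factor also active in self-renewing ESCs, measured 116 and 121 CPM in WT and 394 and 436 CPM in G3 Terc-/- (log2 fold change 1.81, SE 0.054, adjusted p = 1.13e-27). It carried much of the summed level of the list, which was 417 and 425 CPM in WT and 802 and 835 CPM in G3 Terc-/-. Without Tbx3 the sums were 301 and 304 against 408 and 398 CPM. Neurog1, a proneural factor, had counts of 31 and 30 in WT libraries, against 150 and 117 in G3 Terc-/- (2.25, SE 0.22, adjusted p = 1.61e-11). Eomes, a mesendoderm T-box factor, measured 8.43 and 9.07 CPM in WT and 27.5 and 26.6 CPM in G3 Terc-/- (1.63, SE 0.10, adjusted p = 5.27e-17). Cdx1, a caudal factor of the posterior embryo, rose by 1.13 on the log2 scale (adjusted p = 2.75e-11), and Tbx4, of the hindlimb and allantois, by 0.86 (adjusted p = 0.00132). The rising genes thus belong to several lineages.

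The genes that fell include regulators of the primitive endoderm. Gata6 measured 3.85 and 3.07 CPM in WT and 1.53 and 0.987 CPM in G3 Terc-/- (log2 fold change -1.43, SE 0.27, adjusted p = 3.49e-05), and Gata4 measured 6.92 and 6.36 CPM in WT and 4.65 and 3.12 CPM in G3 Terc-/- (-0.75, SE 0.18, adjusted p = 0.000794). Hand1, of trophoblast and heart, measured 3.94 and 4.19 CPM in WT and 1.35 and 0.713 CPM in G3 Terc-/- (-1.94, SE 0.27, adjusted p = 1.48e-07). Wt1, of kidney and gonad, fell by 0.59 on the log2 scale (adjusted p = 0.00985), a call lost in DESeq2 and without WT replicate 2.

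**Figure D5:**
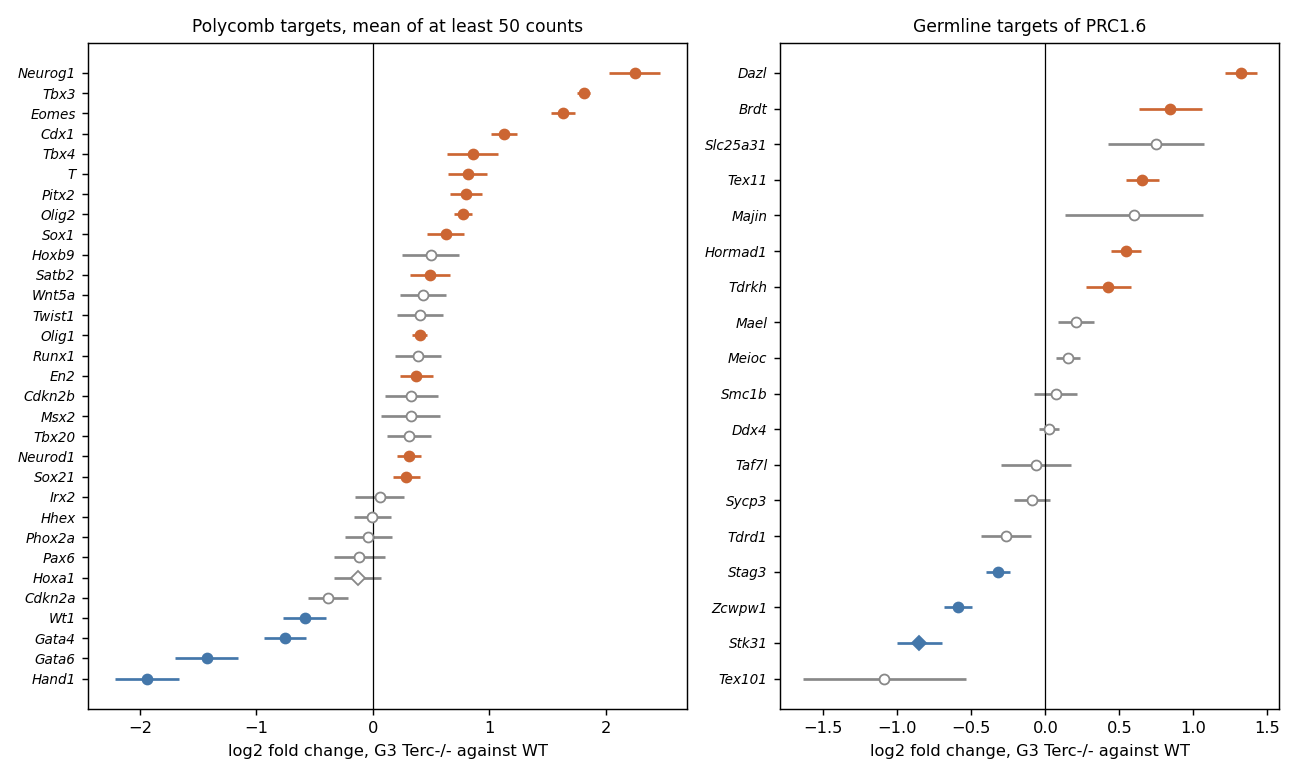
Log2 fold change (G3 Terc-/- against WT, bars 1 SE) of 31 of the 32 Polycomb targets whose mean count was 50 or more (left) and of the 18 germline targets of PRC1.6 (right), with orange for called higher, blue for called lower, open grey for not called and diamonds for chromosome 6. On the left 14 genes are orange and 4 blue, and on the right 5 are orange and 3 blue.

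Germline genes are silenced in ESCs by PRC1.6, the complex of Pcgf6, whose Mga and Max bind CACGTG and whose E2f6 binds TTCCCGC. The windows of Hormad1 (chr3:95559427-95559726, plus strand), which rose, Stag3 (chr5:138280259-138280558, plus strand), which fell, and Sycp3 (chr10:88459337-88459636, plus strand), which did not pass, are shown as 1 example of each outcome among the 5 germline genes whose window holds both motifs. The other 2, Ddx4 (log2 fold change 0.03) and Slc25a31 (0.75), did not pass. Sycp3, Ddx4 and Slc25a31 were named after their values were seen. They are given as for Ezh2, with CACGTG and either strand of TTCCCGC in capitals.
Hormad1: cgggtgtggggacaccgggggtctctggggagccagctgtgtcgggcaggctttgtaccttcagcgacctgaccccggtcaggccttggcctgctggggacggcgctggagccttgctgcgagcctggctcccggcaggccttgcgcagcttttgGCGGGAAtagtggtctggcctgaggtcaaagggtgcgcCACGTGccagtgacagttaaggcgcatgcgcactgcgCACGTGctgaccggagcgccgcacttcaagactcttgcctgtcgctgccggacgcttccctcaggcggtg
Stag3: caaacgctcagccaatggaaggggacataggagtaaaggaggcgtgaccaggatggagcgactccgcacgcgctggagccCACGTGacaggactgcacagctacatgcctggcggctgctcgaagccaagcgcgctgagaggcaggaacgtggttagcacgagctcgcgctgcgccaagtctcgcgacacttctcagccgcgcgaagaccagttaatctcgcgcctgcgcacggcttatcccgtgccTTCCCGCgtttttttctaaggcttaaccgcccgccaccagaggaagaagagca
Sycp3: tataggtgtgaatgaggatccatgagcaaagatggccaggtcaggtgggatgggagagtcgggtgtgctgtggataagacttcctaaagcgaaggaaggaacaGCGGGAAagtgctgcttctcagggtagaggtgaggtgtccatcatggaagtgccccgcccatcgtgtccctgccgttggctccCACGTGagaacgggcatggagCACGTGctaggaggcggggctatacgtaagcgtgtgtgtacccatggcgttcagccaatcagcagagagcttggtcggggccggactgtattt
CACGTG, a palindrome, was in a window of 10 of 16 germline genes with one (62.5%), against 8.09% of all genes, and TTCCCGC on either strand in 7 of 16 (43.8%, against 5.29%). Among the 10 Polycomb genes, none held CACGTG and 1, Suz12, held TTCCCGC. The motifs do not overlap each other. Of the 10 germline genes with CACGTG, 2 rose, 2 fell and 6 did not pass, and of the 6 without it 2 rose, 1 fell and 3 did not pass. Over all tested genes 43.5% were called.

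Of the 18 germline genes, 5 rose and 3 fell (44.4%, near the 43.5% of all genes), with a median of 0.11. Dazl, an RNA-binding protein of germ cells, measured 9.07 and 9.52 CPM in WT and 22.2 and 24.3 CPM in G3 Terc-/- (log2 fold change 1.32, SE 0.11, adjusted p = 9.83e-14). Hormad1, of the meiotic chromosome axis, measured 13.0 and 14.2 CPM in WT and 19.3 and 20.4 CPM in G3 Terc-/- (0.55, SE 0.10, adjusted p = 2.56e-05). Brdt (0.84, adjusted p = 0.00120), a testis bromodomain protein, and Tex11 (0.65, adjusted p = 6.85e-06), a meiotic recombination protein, also rose, as did Tdrkh (0.43, adjusted p = 0.0193), whose call was lost in DESeq2, without WT replicate 1 and without G3 Terc-/- replicate 2. Stag3, a meiotic cohesin, measured 38.2 and 42.7 CPM in WT and 34.8 and 29.9 CPM in G3 Terc-/- (-0.32, SE 0.080, adjusted p = 0.00114), lost without WT replicate 2. Zcwpw1, a reader of histone marks in meiosis, fell by 0.59 on the log2 scale (adjusted p = 2.01e-06), and Stk31 by 0.85 (adjusted p = 8.79e-06), the latter in the same stretch of chromosome 6 as Ezh2.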

How the data were processed

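Poly(A) RNA of 4 ESC libraries, 2 per genotype, was sequenced. The deposited table holds raw read counts per gene, which the authors made by trimming with Trim Galore, alignment to mm10 with STAR and counting with featureCounts, per the labels; versions, annotation and strand setting are not given in the sources used here. A deposited table of transposable elements was not used. Of 24116 gene identifiers, 24061 matched a symbol, and exonic lengths came from GENCODE. Counts were filtered (filterByExpr), TMM normalized and tested by genotype with edgeR 4.0.16 (quasi-likelihood, R 4.3.3), with Benjamini-Hochberg adjustment over 14896 genes. In data simulated for 14896 genes, 100 genes were changed at each fold, and 97% were recovered at 2-fold and 88% at 1.5-fold. The changed genes averaged 50 counts or more, so recovery of genes with fewer reads was not simulated. DESeq2 1.42.0, other scalings and filters, a replicate block and leaving out each library were tried. The ratios of Ezh2 to Ezh1 and of Rnf2 to Ring1 were tested by exact permutation, and the other ratios were not tested.

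Members and lists were chosen with earlier results of these data known. Named genes were the 10 members, up to 6 called genes of largest change per subunit list, the members' paralogs, and up to 5 targets per direction with a mean of at least 50 counts. Other genes of these lists that the text names, such as the Cbx genes, Bap1 and the lysine 27 demethylases, were chosen after their values were seen. A few genes are not reported here. The chromosome 6 stretches were drawn after their values were seen. Replicate numbers did not pair the libraries (correlation of deviations 0.0617).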

Additional observations from a re-analysis of the deposited data

How the results depend on the processing

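In DESeq2, Mtf2 (-0.13) and Ring1 (0.37) no longer passed, 1919 genes were higher and 2255 lower of 19448, against 3238 and 3241 of 14896 in edgeR, and 14 Polycomb targets rose and 4 fell of 147, against 29 and 7 of 88. The edgeR filter on low counts was absent there and DESeq2 applied its own, so the test and the filter both changed. Any genes set aside by the DESeq2 filter count in the 19448 and the 147 but could not be called. In edgeR with no filter, 3135 genes were higher and 3416 lower of 19448. With a mean of at least 50 counts, Mtf2 (-0.11) did not pass and 14 of 32 targets rose, beside 2930 of 12177 genes. The difference of Ezh2 from its neighbours, -0.12, was -0.18 in DESeq2, -0.038 with a mean of at least 50 counts, -0.18 with no filter and -0.060 within 2 Mb. Leaving out each library in turn, where a lone library is assumed to vary like the others, gave -0.069 to 0.037 for Eed, -0.18 to -0.075 for Mtf2, 0.28 to 0.48 for Ring1, 0.16 to 0.28 for Rnf2, 9 to 16 other subunits that fell, -0.15 to -0.059 for Ezh2 against its neighbours, and -0.32 to 0.0033 for the log2 ratio of Rnf2 to Ring1. The value of Pcgf3 ran from -0.066 to 0.033, above 0 without G3 Terc-/- replicate 2 (0.021) or WT replicate 2. The cause of these changes was not tested.

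With the replicate number as a block, 3 of the 10 Polycomb genes were higher and 6 lower, other subunits 16 and 17, targets 29 and 8, germline genes 5 and 3, and all genes 3551 and 3583. Libraries with the same number did not deviate together (correlation 0.0617). Depth limits the Polycomb targets, of which the filter on low counts removed 60 of 148.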

Other observations

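Of the 8 genes that remove Polycomb marks, 1 rose and 1 fell (against 43.5% of all genes called), with a median log2 fold change of 0.03. Asxl1, the partner of the H2A deubiquitylase Bap1, measured 234 and 239.5 CPM in WT and 281 and 288 CPM in G3 Terc-/- (log2 fold change 0.26, SE 0.050, edgeR adjusted p = 2.78e-05). Foxk2, a forkhead protein that binds Bap1, measured 89.7 and 90.7 CPM in WT and 72.1 and 64.7 CPM in G3 Terc-/- (-0.40, SE 0.063, edgeR adjusted p = 1.76e-06). The lysine 27 demethylases Kdm6a (0.03) and Kdm6b (0.02) did not pass, nor did Bap1 (-0.12); these 3 were named after their values were seen.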
